A study of Mus musculus with 4 samples.

Results

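Securin, the product of Pttg1, was read in lens RNA beside 38 other genes of the cell division cycle: separase, the spindle checkpoint, the mitotic kinases, the cyclins and their kinases (Cdks), the Cdk inhibitors, the replication helicase, the supply of DNA building blocks and the transcription factor E2f1. These 39 genes were listed by name, with earlier results of these data known, the Pttg1 difference among them, so its call is not an independent find. All 39 were found among the 14924 genes of the table. All 39 also passed the filter on low values (10 or more in any library), as did 14780 genes in all. The comparison was between lenses of S100A4-/- (null) mice and lenses of WT littermates on a C57BL/6J background, both at postnatal day 30 (1 month of age), with 2 libraries of each genotype. Each library came from 6 to 12 whole lenses pooled, so the dividing epithelium and the non-dividing fibers were measured together. The p-values rest on spread between pools and not between single animals. In limma, the test used, that spread is estimated largely from other genes of similar level. Recovered totals were 81602367 and 74108017 reads in the S100A4-/- libraries 1 and 2, and 70253985 and 68038158 in the WT libraries 1 and 2. A value is the number of reads divided by the size factor of its library, and 1 read was worth 0.856 and 1.01 in S100A4-/- and 1.04 and 1.09 in WT.

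In the lens, cells divide in the epithelium of the anterior surface and leave the cell cycle when they differentiate into fibers, a step in which Cdk inhibitors act. During mitosis, securin holds separase inactive until every chromosome is attached to the spindle. The checkpoint then releases the anaphase-promoting complex, a ubiquitin ligase that marks securin and cyclin B for destruction, and free separase cuts the cohesin rings that hold sister chromatids together. Securin is also known as pituitary tumor transforming gene, after its isolation from pituitary tumor cells.

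The labels were checked first on the deleted gene. Null libraries 1 and 2 held 17 and 18 reads of S100a4, and WT libraries 1 and 2 held 13810 and 13138, and its values were 14.6 and 18.2 against 14420 and 14385. The tissue was checked on markers of its own cells. Of 5 lens epithelium markers and 9 lens fiber markers, none was at 0 in any library and none passed limma's test at an adjusted p of at most 0.05. The epithelial markers, of which Foxe3 was the highest per kilobase of exon, summed to 21359 and 21109 in S100A4-/- and to 21116 and 21502 in WT. The sums overlapped between the genotypes, although single markers lay both ways: Cdh1 and Pdgfra had both S100A4-/- libraries below both WT libraries (log2 fold changes -0.16 and -0.14), and Pax6 and Gja1 had both above (0.07 and 0.15). The fiber markers summed to 6319618 and 6743830 in S100A4-/- and to 6924544 and 6979522 in WT, most of it Cryba1. Both S100A4-/- sums lay below both WT sums. Of the 9 markers, 4 lay below in the same way (44.4%, against 23.2% of all genes tested) and 1 lay above (11.1%, against 23.7%).

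Pttg1 was lower in S100A4-/- lenses than in WT lenses by 2.20-fold, and it was the only 1 of the 39 genes that passed the threshold of at least 2-fold and an adjusted p of at most 0.05. Its value was 276 in null library 1, 283 in null library 2, 671 in WT library 1 and 566 in WT library 2, from 322 and 279 reads against 643 and 517. The S100A4-/- pair lay close together and far below both WT libraries, with means of 279 ± 4.96 and 619 ± 74.5 (SD, n = 2 each). The log2 fold change was -1.14 with a standard error of 0.107 and a 95% interval of -1.36 to -0.92 (limma, adjusted p = 1.63e-10). Across all 14780 genes tested, 0.0744% (11 genes) were lower and 3.65% (539 genes) higher by the same rule. Without limma's trend of variance with expression the fold change was the same, but the adjusted p was 0.0648 and the call was lost. In bulk RNA, fewer cells that express a gene and less RNA per cell cannot be told apart.

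Pttg1 (ENSMUSG00000020415) lies on the minus strand of chromosome 11, from 43420250 to 43426251 on GRCm38. None of the 2166 different stretches of 50 bases in its annotated transcripts, the length of the reads, occurs in an annotated transcript of another gene. The promoter window of Pttg1 is shown beside those of its partner Espl1, of cyclin B2 (Ccnb2) and of the checkpoint kinase Bub1, since many mitotic genes share short promoter elements. These are the CCAAT box, the cell cycle genes homology region (CHR) and, in replication genes, the E2F site. Each window runs from 250 bases before to 50 bases after the RefSeq start (GRCm38.p6), and capitals mark matches, on either strand, to CCAAT, to the CHR letters TTTGAA, to the E2F letters TTCCCGC or TTGGCGC, or to the GC box GGGCGG. On its reverse strand, TTGGCGC can overlap a CCAAT box.
Pttg1 (chr11:43425932-43426231, minus strand): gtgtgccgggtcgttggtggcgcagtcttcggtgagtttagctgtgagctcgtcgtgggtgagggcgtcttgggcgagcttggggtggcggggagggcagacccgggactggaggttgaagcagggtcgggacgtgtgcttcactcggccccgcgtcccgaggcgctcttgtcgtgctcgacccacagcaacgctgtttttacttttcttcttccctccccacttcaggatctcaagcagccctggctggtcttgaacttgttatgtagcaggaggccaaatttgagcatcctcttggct
Espl1 (chr15:102296043-102296342, plus strand): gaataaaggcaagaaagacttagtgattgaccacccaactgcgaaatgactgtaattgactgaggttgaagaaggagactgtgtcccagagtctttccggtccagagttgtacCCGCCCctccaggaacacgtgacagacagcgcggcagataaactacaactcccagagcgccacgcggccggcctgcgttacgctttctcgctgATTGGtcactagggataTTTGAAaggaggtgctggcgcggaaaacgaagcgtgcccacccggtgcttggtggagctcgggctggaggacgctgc
Ccnb2 (chr9:70421505-70421804, minus strand): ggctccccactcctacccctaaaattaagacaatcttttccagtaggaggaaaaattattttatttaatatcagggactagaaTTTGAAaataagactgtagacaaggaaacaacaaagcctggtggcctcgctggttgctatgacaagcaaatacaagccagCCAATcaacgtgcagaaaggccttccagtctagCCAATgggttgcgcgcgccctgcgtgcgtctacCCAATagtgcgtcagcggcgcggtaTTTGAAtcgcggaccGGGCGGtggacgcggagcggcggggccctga
Bub1 (chr2:127831810-127832109, minus strand): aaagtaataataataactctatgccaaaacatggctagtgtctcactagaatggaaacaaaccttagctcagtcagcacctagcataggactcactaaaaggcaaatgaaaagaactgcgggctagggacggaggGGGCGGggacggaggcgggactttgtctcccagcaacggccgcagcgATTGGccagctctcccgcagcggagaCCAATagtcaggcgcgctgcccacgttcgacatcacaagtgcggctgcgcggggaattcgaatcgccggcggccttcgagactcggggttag

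The Pttg1 window held none of these letters, nor did that of Cdk6, and the Espl1 window held a CHR, a CCAAT box and a GC box. The Ccnb2 window held 2 CHR matches, 3 CCAAT boxes and 1 GC box. That of Bub1 held 2 CCAAT boxes, 1 GC box and no match to TTTGAA, the only CHR letters searched. The annotated GENCODE start of Pttg1 lies 20 bases upstream of its window, so bases before that start were not searched. Windows were at hand for 33 of the 39 genes (37 windows). CCAAT was found in 67.6% of these windows against 37.4% of all 32851 windows, and TTTGAA in 29.7% against 17.9%. The E2F letters were found in 29.7% against 6.81%, and GGGCGG in 78.4% against 35.7%. A match is a description of the letters and not a measured site.

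The plot of values by library gives all 39 genes in the order of their roles. Levels between genes were compared per kilobase of annotated exon. On that scale Pttg1 took rank 5 of the 39 genes in WT, at 309 ± 37.2 per kb (SD, n = 2), behind Ccnd1, Cdk4, Ccnd2 and Cdkn2c and next to Cdkn1b at 299 per kb. The difference between Pttg1 and Cdkn1b was within the spread of the WT libraries. In S100A4-/- Pttg1 stood at 139.6 ± 2.48 per kb, at rank 8.

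**Figure D1:**
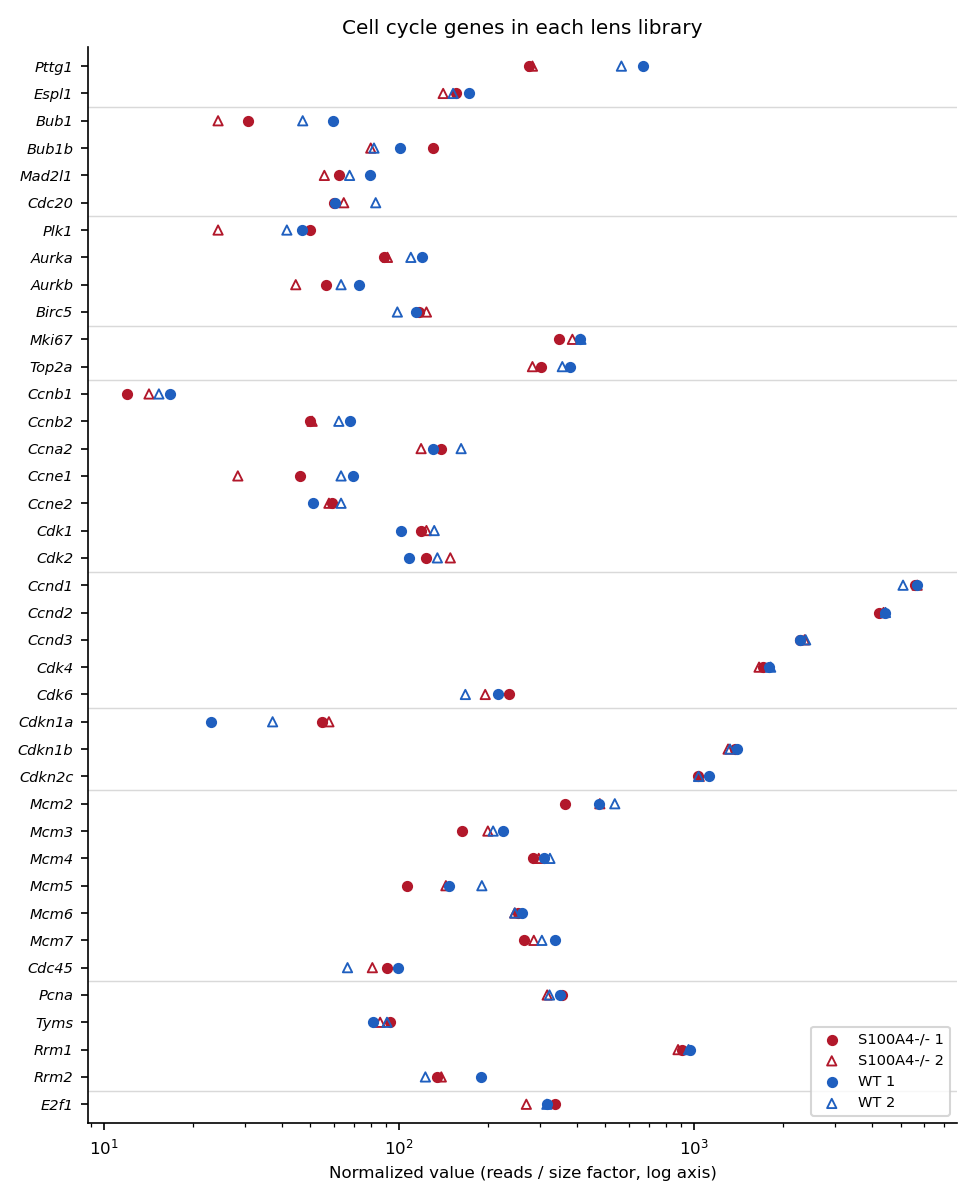
Normalized value (reads divided by the size factor, log axis) of each of the 39 genes in each library, with S100A4-/- libraries in red, WT libraries in blue, circles for library 1 and triangles for library 2, and grey lines between roles. The red and blue symbols of Pttg1 are well apart, at 276 and 283 against 671 and 566, whereas those of Mki67 (349 and 386 against 410 and 413) are close.

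Separase, encoded by Espl1, is the protease that securin holds. Its values were 156 and 141 in S100A4-/- and 172 and 152 in WT. The groups overlapped, and the log2 fold change was -0.13 with a 95% interval of -0.46 to 0.21 (limma, adjusted p = 0.762). Within each library, the value of Pttg1 was 1.77 and 2.01 times that of Espl1 in S100A4-/- and 3.90 and 3.72 times in WT. A ratio within a library does not depend on how libraries are scaled to each other. Per kilobase of exon, the mean level of Pttg1 was 8.23 times that of Espl1 in S100A4-/- and 16.7 times in WT. On either scale the ratio was lower in S100A4-/-, and by library it was lower in both S100A4-/- libraries than in both WT libraries.

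Against the mean log2(value + 1) of the 38 other genes, Pttg1 stood higher by 0.51 and 0.61 in S100A4-/- and by 1.68 and 1.47 in WT. The genotype difference of this relative level was -1.01 on the log2 scale (means 0.56 ± 0.07 and 1.57 ± 0.15, SD, n = 2 each). With 2 libraries against 2, an exact 2-sided permutation test cannot go below p = 0.333. The ratio of Pttg1 to a single other gene was lower in both S100A4-/- libraries than in both WT libraries for 36 of the 38 genes, and the exceptions were Bub1 and Ccne1. All these ratios share the same Pttg1 values, so the count restates the fall of Pttg1 and is not separate support. The mean of the 38 other genes itself was 7.60 and 7.54 in S100A4-/- and 7.71 and 7.68 in WT on the log2 scale, a smaller difference than that of Pttg1.

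**Figure D2:**
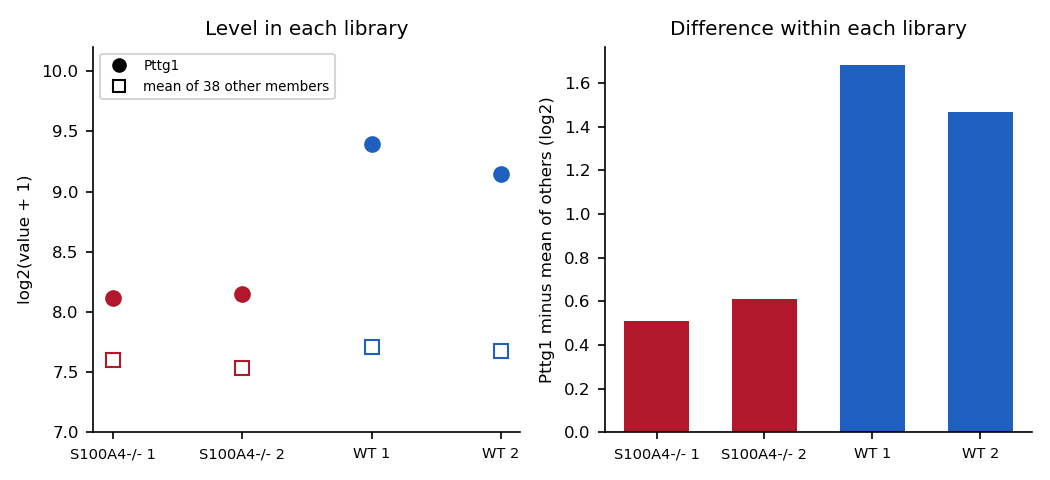
Left, log2(value + 1) of Pttg1 (filled circles) and the mean of the 38 other genes (open squares) in each library, S100A4-/- in red and WT in blue; the axis does not start at 0. Right, their difference within each library, which was 0.51 and 0.61 in S100A4-/- and 1.68 and 1.47 in WT.

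The spindle checkpoint delays anaphase while chromosomes are unattached. Bub1, a kinase of the checkpoint at the kinetochore, had values of 30.8 and 24.3 in S100A4-/- and 59.5 and 47.1 in WT. Both S100A4-/- libraries were below both WT libraries, but the gene rested on 24 to 57 reads a library, and its log2 fold change of -0.93 (95% interval -1.59 to -0.26) did not pass (limma, adjusted p = 0.0898). Bub1b, which encodes the checkpoint protein BubR1, had 130 and 80.1 against 100 and 82.1, so the groups overlapped, with a log2 fold change of 0.17. Mad2l1, whose product binds Cdc20 while the checkpoint is on, had 62.5 and 55.7 against 79.4 and 67.9 (log2 fold change -0.31, limma, adjusted p = 0.571). Cdc20, the activator of the anaphase-promoting complex, had 59.9 and 64.9 against 60.6 and 83.2 (log2 fold change -0.18). None of these 4 checkpoint genes passed the test in either direction. Under quantile normalization, Bub1 did pass the 2-fold threshold (-1.18, limma, adjusted p = 0.0293).

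Among the mitotic kinases and passenger proteins, Aurora A (Aurka), a kinase of the spindle poles, had values of 89.1 and 91.2 in S100A4-/- and 119 and 109 in WT. Aurora B (Aurkb), the kinase of the chromosomal passenger complex, had 56.5 and 44.6 against 73.1 and 63.5. Both genes had no overlap between groups, with log2 fold changes of -0.34 and -0.43, and neither passed (limma, adjusted p = 0.40 and 0.422). Survivin (Birc5), a partner of Aurora B, stood the other way round, at 116 and 124 against 114 and 98.5. Its log2 fold change was 0.18 (limma, adjusted p = 0.698), so the kinase and its partner lay on opposite sides of 0. Polo-like kinase 1 (Plk1), which acts from mitotic entry to its end, had 49.7 and 24.3 against 47.0 and 41.6 and overlapped. Its S100A4-/- libraries differed from each other by more than the means of the genotypes did.

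Mki67 and Top2a are the usual RNA markers of dividing cells, and neither passed the test. Mki67, which encodes the Ki-67 protein that coats mitotic chromosomes, had values of 349 and 386 in S100A4-/- and 410 and 413 in WT, with no overlap between groups. Its log2 fold change was -0.17, and the 95% interval of -0.38 to 0.05 excluded a 2-fold difference in either direction (limma, adjusted p = 0.454). Top2a, the topoisomerase that untangles sister chromatids, had 301 and 283 against 378 and 357. Its groups did not overlap, and the log2 fold change of -0.33 (interval -0.56 to -0.10) did not pass (limma, adjusted p = 0.0814). The 95% interval of Pttg1, -1.36 to -0.92, overlapped neither of these intervals. Pttg1 was listed with its difference already known, and its contrast with these genes was not tested.

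Cyclins A and B with Cdk1 drive mitosis, and cyclin E with Cdk2 drives entry into S phase. Ccne1, for cyclin E1, had values of 46.2 and 28.4 in S100A4-/- and 70.0 and 63.5 in WT, with no overlap. Its log2 fold change of -0.86 (95% interval -1.46 to -0.26) did not pass (limma, adjusted p = 0.0774). With each library left out in turn, it ran from -1.20 without S100A4-/- library 1 to -0.52 without S100A4-/- library 2. Quantile normalization took Ccne1 past the 2-fold threshold (-1.09, limma, adjusted p = 0.0308). Its close relative Ccne2, for cyclin E2, stood at 59.1 and 57.8 against 51.2 and 63.5 with a log2 fold change of 0.03. The 95% intervals of the cyclin E genes overlapped (-0.51 to 0.57 for Ccne2), and the difference between them was not tested. Ccnb2, for cyclin B2, had 49.7 and 50.7 against 67.9 and 62.4 (log2 fold change -0.37, limma, adjusted p = 0.514). Ccnb1, for cyclin B1, had only 14 to 16 reads in each library, and its interval, from -1.34 to 0.79, reached beyond 2-fold. Ccna2, Cdk1 and Cdk2 overlapped between groups, at log2 fold changes of -0.18, 0.07 and 0.17.

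The D-type cyclins with Cdk4 and Cdk6 act in G1, and Ccnd1, Cdk4 and Ccnd2 had the highest levels per kilobase of the 39 genes in WT. Ccnd1 had 5577 and 5691 in S100A4-/- and 5705 and 5097 in WT (1147 per kb in WT). Its log2 fold change was 0.06 with a 95% interval of -0.04 to 0.17 (limma, adjusted p = 0.579). Ccnd2 and Ccnd3 had log2 fold changes of -0.05 and -0.005, and Cdk4 of -0.10 (interval -0.22 to 0.03). The intervals of these 4 abundant genes lay between -0.22 and 0.17 and included 0. Cdk6, much less abundant at 13.7 per kb in WT, had 235 and 196 against 216 and 168 and overlapped (log2 fold change 0.17).

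Of the Cdk inhibitors, p27 (Cdkn1b) and p18 (Cdkn2c) were abundant and close between genotypes. Cdkn1b had values of 1372 and 1301 in S100A4-/- and 1400 and 1320 in WT (log2 fold change -0.03, interval -0.16 to 0.11). Cdkn2c had 1028 and 1039 against 1121 and 1034 (log2 fold change -0.06). p21 (Cdkn1a), which p53 induces, was scarce, at 54.8 and 57.8 in S100A4-/- and 23.0 and 37.2 in WT, from 22 to 64 reads a library. Both S100A4-/- libraries lay above both WT libraries. Its log2 fold change of 0.92 (interval 0.26 to 1.58) was the highest of the 39 genes and did not pass (limma, adjusted p = 0.0861). With each library left out in turn it ran from 0.58 without WT library 1 (limma, adjusted p = 0.449) to 1.26 without WT library 2 (adjusted p = 0.0181), and it passed only in the latter case. Cdkn1a was the member farthest above 0 and Pttg1 the member farthest below it.

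The genes of the replication helicase, Mcm2 to Mcm7 and Cdc45, unwind DNA in S phase. Mcm5 had values of 106 and 144 in S100A4-/- and 147 and 191 in WT, with a log2 fold change of -0.43 (limma, adjusted p = 0.173). Mcm2 had 365 and 478 against 475 and 538, so that a WT library lay just below an S100A4-/- library, with a log2 fold change of -0.27 (limma, adjusted p = 0.155). S100A4-/- library 1 had the lowest value of all libraries for Mcm2, Mcm3, Mcm4, Mcm5 and Mcm7. Leaving out S100A4-/- library 2 took Mcm2 past an adjusted p of 0.05 (log2 fold change -0.47, limma, adjusted p = 0.0430), and leaving out WT library 1 did so for Mcm5 (-0.62, adjusted p = 0.0437). Without S100A4-/- library 1, by contrast, Mcm2 was -0.079 (limma, adjusted p = 0.83) and Mcm5 -0.22 (adjusted p = 0.709), and without WT library 2 Mcm5 was -0.25, so these values moved with single libraries. The log2 fold changes of Mcm3, Mcm4, Mcm6 and Mcm7 were -0.26, -0.12, -0.02 and -0.22. Cdc45, which joins the Mcm ring into the active helicase, had 90.8 and 81.1 against 99.2 and 66.8 and stood at 0.07. Of these 7 genes, 4 had both S100A4-/- libraries below both WT libraries (57.1%, against 23.2% of all genes tested). Both lay above for 0 (23.7% of all genes tested), and none of the 7 passed.

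Pcna, the sliding clamp of DNA polymerases, had values of 357 and 317 in S100A4-/- and 351 and 323 in WT. The log2 fold change was -0.0002 with a 95% interval of -0.23 to 0.23. So close to 0, its sign turned with TMM scaling and with equal totals, but not with quantile normalization (-0.038). The genes that supply nucleotides were also near 0. Thymidylate synthase (Tyms) stood at 0.06 and the ribonucleotide reductase subunits Rrm1 and Rrm2 at -0.11 and -0.16 on the log2 scale. Rrm1, at 907 and 881 against 968 and 956, had no overlap between groups (limma, adjusted p = 0.511), and the other genes of this role overlapped. E2f1, a transcription factor that drives S phase genes, had 337 and 270 against 316 and 316 (log2 fold change -0.07, limma, adjusted p = 0.833).

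**Figure D3:**
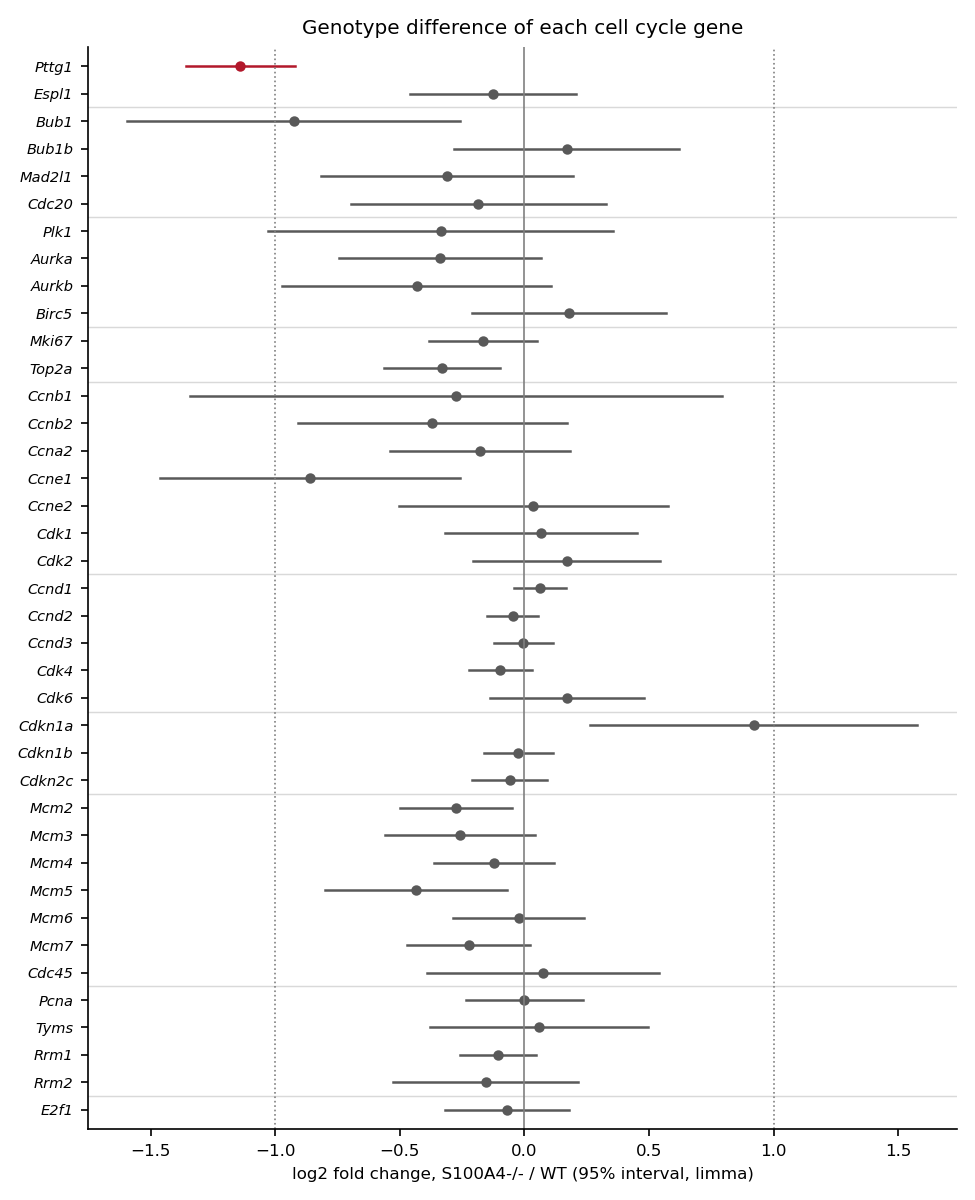
log2 fold change of each of the 39 genes, S100A4-/- over WT, from limma on log2(value + 1), with its 95% interval; dotted lines mark 2-fold, and red marks the gene that passed the threshold. The interval of Pttg1 (-1.36 to -0.92) lies apart from 0, whereas the intervals of 32 of the 39 genes include 0.

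Counted over all 39 genes, 1 was lower (Pttg1) and none was higher by either rule, at least 2-fold with an adjusted p of at most 0.05 or that adjusted p at any fold. By the second rule 6.96% of all genes tested were called, 1.33% lower and 5.62% higher. An unadjusted limma p below 0.05 was found for 7 of the 39 genes (17.9%) and for 17.7% of all genes tested, counting both directions. Of the 7, Pttg1, Bub1, Top2a, Ccne1, Mcm2 and Mcm5 had lower and Cdkn1a higher values in S100A4-/-. By direction this was 15.4% lower and 2.56% higher, against 6.71% lower and 10.96% higher of all genes tested. Both S100A4-/- libraries lay below both WT libraries for 17 of the 39 genes (43.6%) against 23.2% of all genes, and above them for 2 (Birc5 and Cdkn1a) against 23.7% of all genes; the groups did not overlap in either direction for 46.9% of all genes. The log2 fold change was below 0 for 29 of the 39 (74.4%) and for 51.2% of all genes. For the 38 genes other than Pttg1 the median was -0.11, with the middle range from -0.28 to 0.03, and for all genes tested it was -0.005, with the middle range from -0.11 to 0.15. The genes were chosen because they act in 1 process, and they are not independent of each other.

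The intervals show which differences this fit could exclude. For 33 of the 39 genes the 95% interval lay within 2-fold in both directions. The other 6 were Pttg1, Bub1, Plk1, Ccnb1, Ccne1 and Cdkn1a, of which all but Pttg1 had mean WT values below 100. For these 5 scarce genes a 2-fold difference was neither called nor excluded in the main fit, and alternatives that called some of them are given below.

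The rest of the cell cycle machinery was read in 7 lists written by hand, with 117 genes, of which 116 were measured and tested. None of the 116 passed the 2-fold threshold. At any fold 1 was lower (Pole) and 1 was higher (Ccng1) with an adjusted p of at most 0.05, which is below the 1.33% and 5.62% of all genes. Their median log2 fold change was -0.07, and 84 of 116 were below 0 (72.4%, against 51.2% of all genes tested). Both S100A4-/- libraries lay below both WT libraries for 44 of them (37.9%, against 23.2%) and above for 11 (9.48%, against 23.7%). The plot of lists shows each gene.

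The anaphase-promoting complex and cohesin act next to securin and separase at the start of anaphase, and none of their genes was called. Of 15 genes of the anaphase-promoting complex none passed, and their median was -0.05, with Anapc15 lowest at -0.25 and Anapc10 highest at 0.01. Both S100A4-/- libraries lay below both WT libraries for 7 of the 15 (46.7%, against 23.2% of all genes tested) and above for 0 (23.7% of all genes tested), and 13 of the 15 log2 fold changes were below 0 (86.7%, against 51.2%). Anapc2 passed at any fold without S100A4-/- library 2 (-0.23, limma, adjusted p = 0.0433). The highest per kilobase was Anapc13, a small subunit, whose values were 3204 and 3146 in S100A4-/- and 3469 and 3160 in WT. Of 14 genes of cohesin and its regulators none passed, with a median of -0.04, and 4 had both S100A4-/- libraries below both WT libraries (28.6%, against 23.2% of all genes tested) and 1 had both above (7.14%, against 23.7%). Rad21, the subunit that separase cuts and the highest of them per kilobase, had 1962 and 1911 against 1998 and 2014 (log2 fold change -0.05, limma, adjusted p = 0.738). Esco2, an acetyltransferase that locks cohesin rings, was lowest at -0.48 and Mau2, a subunit of the cohesin loader, highest at 0.12.

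Among 30 other mitosis genes none passed, and the median was -0.22. Both S100A4-/- libraries lay below both WT libraries for 14 of them (46.7%, against 23.2% of all genes tested) and above for 3 (10%, against 23.7%). The lowest log2 fold change was that of Cenpe, a kinetochore motor, at 37.7 and 47.6 against 92.9 and 63.5 (-0.84, limma, adjusted p = 0.0568), which passed at any fold with edgeR (adjusted p = 0.0442), a pseudocount of 5 (adjusted p = 0.0478), quantile normalization (-1.06, adjusted p = 0.0232) and without WT library 2 (-1.11, adjusted p = 0.0143). Smc4, a condensin subunit, passed without WT library 2 (-0.39, limma, adjusted p = 0.0432). The highest was that of Kif2c, a kinesin that takes microtubules apart, at 0.24. Bub3, a checkpoint protein and the highest of this list per kilobase, stood at -0.11. This median was the lowest of the 7 lists, and differences between lists were not tested.

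Pole, the catalytic subunit of DNA polymerase epsilon, was the gene that fell among 29 other replication genes. Its values were 49.7 and 45.6 in S100A4-/- and 85.6 and 99.6 in WT, with a log2 fold change of -0.94 ± 0.248 (SE, limma, adjusted p = 0.0110). The groups were well apart, at 45 to 91 reads a library, but the call was lost with DESeq2, without limma's trend, and when S100A4-/- library 1, S100A4-/- library 2 or WT library 2 was left out. Both S100A4-/- libraries lay below both WT libraries for 16 of the 29 genes (55.2%, against 23.2% of all genes tested) and above for 2 (6.90%, against 23.7%), and the median was -0.17. Cdc7, the kinase that fires origins, had the highest log2 fold change of the list, 0.53 (127 and 143 against 104 and 82.1, limma, adjusted p = 0.102), and passed at any fold without WT library 1 (0.71, adjusted p = 0.0357). Lig1, for DNA ligase 1, was lower at any fold without WT library 1 (-0.52, limma, adjusted p = 0.0143). Gins4, of the GINS complex of the helicase, was the highest of the list per kilobase and stood at 0.02, and Orc1, of the origin recognition complex, had the lowest log2 fold change, -1.33 on only 2 to 10 reads a library.

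Of 12 other E2F, DP and pocket protein genes none passed, and the median was -0.05, between Rbl1 at -0.30 and E2f5 at 0.17. E2f4, an E2F known mainly as a repressor in resting cells, was the highest per kilobase, with a log2 fold change of -0.06. Of 4 other Cdk inhibitors measured, p57 (Cdkn1c), known for cell cycle exit of lens fibers, was the highest per kilobase, with values of 10475 and 10739 in S100A4-/- and 10669 and 10741 in WT. Its log2 fold change was -0.01 with a 95% interval of -0.10 to 0.08, so the groups overlapped. Cdkn3, a phosphatase that acts on Cdks, was the lowest at -1.61 on 2 to 14 reads a library (limma, adjusted p = 0.233).

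Ccng1, for cyclin G1, a target of p53, rose among the 12 genes of p53 and its targets. Its values were 48040 and 45795 in S100A4-/- and 35639 and 34379 in WT, with a log2 fold change of 0.42 ± 0.041 (SE, limma, adjusted p = 3.72e-10). Ccng1 had the highest level per kilobase of all 7 lists, and its groups did not overlap; without limma's trend the call was lost. None of the other 11 genes of the list passed, and its lowest value was that of Sesn1, at -0.04. The median of the list was 0.02, and both S100A4-/- libraries lay above both WT libraries for 5 of the 12 (41.7%, against 23.7% of all genes tested).

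**Figure D4:**
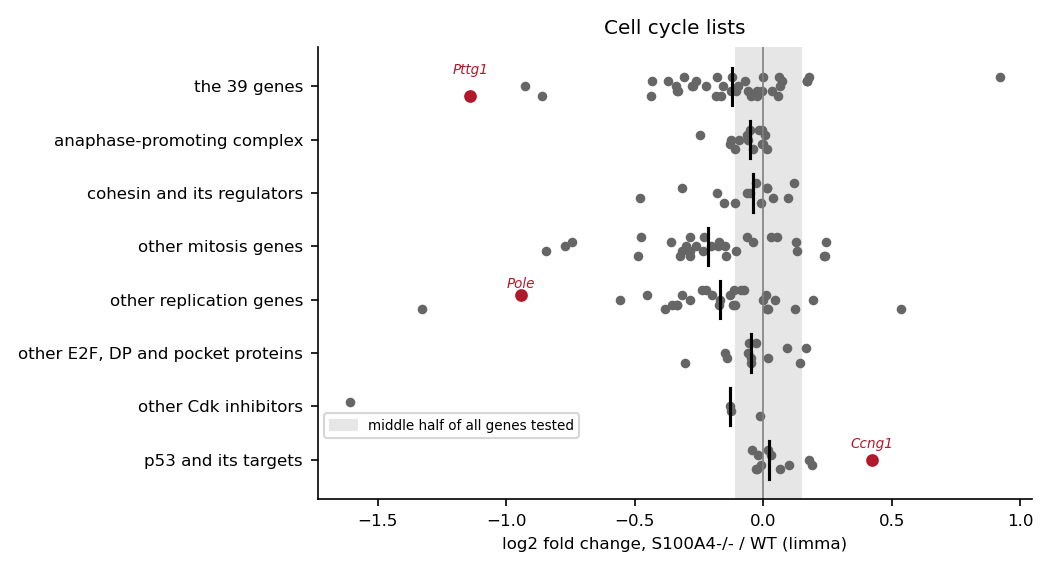
log2 fold change, S100A4-/- over WT, of the 39 genes and of 7 lists of other cell cycle genes (points, spread vertically for view), with the median of each list (black line) and the middle range of all genes tested (grey, -0.11 to 0.15). Red points are genes with an adjusted p of at most 0.05 at any fold: Pttg1, Pole and Ccng1.

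The genes around Pttg1 on chromosome 11 were also read. Of 8 tested genes within 1 Mb, Ttc1 was higher in S100A4-/- (1735 and 1661 against 1446 and 1431, log2 fold change 0.24 ± 0.064, SE, limma, adjusted p = 0.0138) and none was lower. At an adjusted p of at most 0.05 at any fold, 5.62% of all genes tested were higher and 1.33% lower. Slu7, the nearest tested gene at a distance of 7493 bases, had 836 and 789 against 833 and 886 and overlapped (log2 fold change -0.08). The 8 log2 fold changes ran from -0.31 to 0.68 with a median of -0.04. None of these neighbours had a log2 fold change as low as the -1.14 of Pttg1. Few genes anywhere did, as Pttg1 took rank 90 from the lowest among all genes tested.

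Markers of other cell types of the eye differed between the genotypes beside these results. All 7 rod photoreceptor markers were higher in S100A4-/- (here and below, limma with an adjusted p of at most 0.05), with summed values of 8016 and 7895 against 1816 and 1910, and Gnat1 was the highest per kilobase. By that rule 5.62% of all genes tested were higher. All 5 pigment cell markers were higher, summing to 1178 and 1230 against 174 and 261, with Tyrp1 the highest per kilobase in WT and Pmel in S100A4-/-. Of 5 Müller glia markers, 3 were higher, and their sum was 84914 and 94008 against 91023 and 92107, most of it Vim, which lens cells also express. Of 3 macrophage markers tested (of 5 listed), 1 was higher, with sums of 136 and 118 against 45.9 and 55.8 and Csf1r the highest per kilobase. Of 4 endothelium markers, 1 was higher (Kdr, 74.5 and 60.8 against 9.40 and 9.85), with sums of 158 and 165 against 86.7 and 114. Tek, the highest per kilobase, stood the other way, at 46.2 and 44.6 against 49.1 and 59.1 (log2 fold change -0.24). Pecam1 and Cdh5 overlapped between genotypes. Of 5 red blood cell markers tested (of 6 listed), 1 was higher, with sums of 294 and 259 against 169 and 98.5 and Hbb-bs the highest per kilobase. No marker tested was at 0 in any library. The part of these cell types in the values above was not tested.

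**Figure D5:**
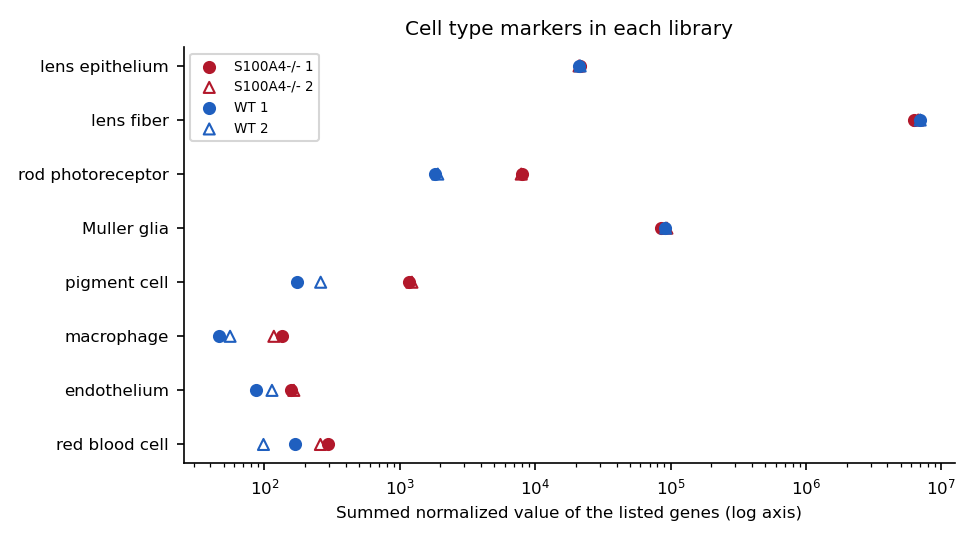
Summed normalized value (log axis) of the marker genes of each cell type in each library, S100A4-/- in red and WT in blue. Lens epithelium sums overlap between genotypes and lens fiber sums are 6319618 and 6743830 in S100A4-/- and 6924544 and 6979522 in WT, whereas the rod sums are 8016 and 7895 in S100A4-/- and 1816 and 1910 in WT.

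Some of the 39 genes share exon sequence with genes on the opposite strand. The libraries were made with a stranded kit, but whether reads were counted by strand is not given in the sources used here. Exons on the other strand cover 23.4% of the exons of Ccnd1 (LTO1), 19.7% of those of Cdk4 (Tspan31), 17.4% of those of Ccne2 (Ints8) and 12.5% of those of Ccna2 (Exosc9). The overlap of Cdk2 with Pmel, a pigment cell gene that was higher in S100A4-/-, was 34 bases. Annotated transcripts of other genes share 23.4% of the 50-base stretches of Ccnb1, 23.3% of those of Mcm7, 21.6% of those of Ccnd1, 19.1% of those of Pcna, 17.0% of those of Cdk4, 14.4% of those of Ccne2, 11.4% of those of Ccna2, 10.6% of those of Cdc20 and 10.4% of those of Plk1, so the values of these 9 genes are uncertain. Stretches were matched on either strand, so the exons on the opposite strand given above count in these shares as well. Bub1, Bub1b, Aurka, Ccne1 and Cdk1 shared none, nor did Pttg1.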

How the data were processed

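RNA of P30 lenses was sequenced as stranded single-end mRNA libraries of 50 bases. The authors trimmed reads (Trim Galore), mapped them (STAR, GRCm38 v73), counted reads at a single locus per gene (HTSeq), dropped genes that reached 10 reads in no library and scaled the counts by DESeq2; versions are not given in the sources used here. The signal values the authors deposited are counts over 1 size factor per library. In each library 100% of values were whole multiples of 1 read (tolerance 0.01), so reads were recovered. The deposited table left 0 columns without a sample.

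Genotypes were compared with limma (lmFit, eBayes with trend) on log2(value + 1), for 14780 of 14924 genes, with Benjamini-Hochberg adjustment over all of them. Fold changes are on that scale, which understates those of low genes. A floor of 3 reads covers counting error only, and the fit did not use it as a filter. Symbols and coordinates came from GENCODE M21 (14782 of 14924 identifiers matched), and levels per kb use the union of annotated exons. Promoters came from RefSeq. The members and lists were chosen with earlier results of these data known. Named genes were the members, S100a4, the called genes of each list, its highest and lowest fold changes and its most abundant gene (per kb), and called neighbours of Pttg1. Alternatives were other pseudocounts (0.5, 5), filters (none, mean of at least 50) and scalings (TMM, equal totals, quantile), limma without trend, the replicate number as a block, edgeR and DESeq2 on recovered reads, and each library left out. The tests were tested on simulated data. Models were fitted in R 4.3.3 by limma 3.58.1, with edgeR 4.0.16 or DESeq2 1.42.0 for counts. Tables were made in Python 3.11.15 by pandas 2.3.3 and figures by matplotlib 3.10.9.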

Additional observations from a re-analysis of the deposited data

How the results depend on the processing

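Pttg1 kept its direction under all 15 alternatives and its call under 14, with log2 fold changes from -1.15 to -1.11 and, leaving out 1 library at a time, from -1.26 to -1.02. Without limma's trend its value was -1.14 and it did not pass (adjusted p = 0.0648); the cause was not tested. S100a4 changed no call. Pttg1 relative to its peers stayed between -1.12 and -0.91, and the median of the 38 other genes between -0.16 and -0.07. That median and the median of all genes (-0.03 to 0.02) were given for each alternative after the data had been seen.

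Counts of members past the 2-fold threshold were 0 to 1 higher and 1 lower with each library left out, and at any fold 0 to 1 higher and 1 to 2 lower. Quantile normalization gave 3 lower by either rule (Pttg1, Bub1 and Ccne1), with Bub1 at -1.18 (adjusted p = 0.0293) and Ccne1 at -1.09 (adjusted p = 0.0308), and limma without the trend gave 0 by either rule. Of all genes, 281 were higher with a mean value of at least 50 and 174 without the trend (549 and 179 at any fold). Lower counts were 6, 25, 7 and 6 with that filter, quantile normalization, no trend and DESeq2, and at any fold 55 with equal totals, 8 with no trend and 91 with DESeq2. With each library left out, all genes gave 275 to 535 higher and 6 to 13 lower, and at any fold 404 to 795 and 87 to 161. Of the pathway genes, quantile normalization put 2 lower past the threshold. At any fold 2 were lower with a pseudocount of 5, quantile normalization and edgeR, and 0 with no trend and DESeq2, where no trend also left 0 higher. With each library left out these were 0 to 1 lower past the threshold, 0 to 2 lower and 1 to 2 higher at any fold. The fit without a library assumes that the lone library varies like the other group.

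Same-numbered libraries did not deviate together (r = 0.0119 across 14780 genes, 2 pairs), so the numbers were not taken to pair them. With the replicate number as a block 3 members were lower at any fold (Pttg1, Top2a at -0.33 with adjusted p = 0.0482, and Ccne1 at -0.86 with adjusted p = 0.0462), 3 pathway genes (Pole, Cenpe and Lig1) and 348 of all genes, and no other member call changed.

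Signs turned for 16 members, none beyond 0.34 in size in the first place. Under quantile normalization Ccne2 was -0.16, Cdk1 -0.067, Ccnd2 0.0051, Ccnd3 0.020, Cdc45 -0.094 and Tyms -0.11. With equal totals Ccnd3 was 0.024, Cdkn1b 0.0038, Mcm6 0.0057 and Pcna 0.029, and Pcna was 0.0027 with TMM, 0.0073 with edgeR and 0.0023 with DESeq2. With each library left out, log2 fold changes ran from -0.18 to 0.52 for Bub1b, -0.41 to 0.041 for Cdc20, -0.84 to 0.16 for Plk1, -0.12 to 0.19 for Ccne2, -0.12 to 0.25 for Cdk1, -0.018 to 0.14 for Ccnd1, -0.036 to 0.026 for Ccnd3, -0.013 to 0.35 for Cdk6, -0.068 to 0.017 for Cdkn1b, -0.062 to 0.015 for Mcm6, -0.21 to 0.36 for Cdc45, -0.085 to 0.085 for Pcna, -0.019 to 0.14 for Tyms, -0.47 to 0.15 for Rrm2 and -0.23 to 0.089 for E2f1. Depth limited the genes with under 100 reads a library most, Ccnb1 above all.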
